A study of Mus musculus with 12 samples.

Results

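A set of 10 genes of adenosine and purine signalling, written here as the members, were described in astrocytes isolated from mice with 2, 1 or 0 working copies of Cd38. They were picked by name with no threshold on level or change, though with earlier results of these data known, and 10 of the 20614 genes in the deposited table carried these names: Entpd2, Enpp1, Nt5e, Adk, Adora1, Adora2a, Adora2b, P2ry1, P2ry14 and P2rx7. RNA abundance was given in TPM, a unit of transcript abundance corrected for transcript length and library total, so that levels can be set side by side between genes. Each library summed to 1000000 TPM, and the number of reads behind a value was not recoverable from this unit.

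The study isolated RNA from 3 wildtype (Cd38+/+), 3 heterozygous (Cd38+/-) and 6 knockout (Cd38-/-) samples, 12 libraries in all. Male mice of 12 to 14 months were used, all bred from C57BL/6J and from a line in which exons of Cd38 are disrupted in every cell of the body, so that no result can be tied to the loss of Cd38 in astrocytes alone. The tissue called midbrain was taken from microdissected striatum, thalamus and substantia nigra. Endothelial cells, myelin and CD11b-positive cells were removed before astrocytes were captured on beads through the surface antigen ACSA-2. The labels do not say whether a sample came from 1 animal, so the p-values below measure the spread between these samples only.

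Cells release ATP and other nucleotides, which enzymes on the cell surface trim step by step to adenosine. ATP and ADP act on P2X channels and P2Y receptors, adenosine acts on the 4 adenosine receptors, and adenosine that re-enters the cell is removed mainly by adenosine kinase. Astrocytes are a principal site of this handling in the brain. CD38 is itself a surface enzyme that consumes NAD, and its product can be converted further to AMP and adenosine through ENPP1 and CD73, which is why these genes bear on a Cd38 knockout.

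Cd38 RNA was lower in Cd38-/- than in the other genotypes. It was 148.64, 120.04 and 104.88 TPM in Cd38+/+, 90.80, 90.70 and 90.36 TPM in Cd38+/-, and ran from 8.54 to 21.86 TPM in the 6 Cd38-/- libraries, without overlap between any 2 genotypes. The log2 fold change on log2(TPM + 1) was -2.96 (SE 0.28) in Cd38-/- against Cd38+/+, with limma q = 0.00116, and -2.52 (SE 0.25, q = 0.00340) against Cd38+/-. The difference between Cd38+/- and Cd38+/+, a log2 value of -0.44 (SE 0.18), was not called (limma q = 0.226). The Cd38+/+ libraries stood apart in listing only 13160 to 13516 genes above 0, against 16160 to 16327 in Cd38+/- and 15920 to 17906 in Cd38-/-. The summed level of 10 astrocyte markers was 10269 to 14455 TPM in Cd38+/+, 14829 to 16647 TPM in Cd38+/- and 11649 to 15044 TPM in Cd38-/-. Markers of other cells were present too, with 7 oligodendrocyte genes summing to 1295 to 17799 TPM and 8 choroid plexus and ependyma genes to 1641 to 9064 TPM across the libraries, against 32.4 to 120 TPM for 8 neuronal genes. The 8 endothelial markers summed to 442 to 2075 TPM in Cd38+/+, 369 to 746 TPM in Cd38+/- and 402 to 1346 TPM in Cd38-/-. In bulk RNA of this kind, fewer cells of a type and less RNA per cell cannot be told apart.

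No member passed the test in any of the 3 genotype comparisons. A gene was tested where its mean exceeded 5 TPM in at least 1 of the genotypes compared, and called where the Storey q was under 0.05 and the change at least 1.2-fold. In Cd38+/- against Cd38+/+, limma called 0 of 8 members tested, against a background of 0% of 11763 genes, and 0 of 8 had an unadjusted p under 0.05 where 13.5% of all genes did. That background of 0 depended on the fit. It became 663 of 17204 genes without the level filter and 1464 of 11763 with all 12 libraries in 1 fit, with 0 members called in either. Between Cd38-/- and Cd38+/+, limma called 0 of 7 members tested where 8.28% of 11722 genes were called, and again 0 had an unadjusted p under 0.05, against 23.6% of all genes. That background was unstable: its 970 genes became 74 without Cd38-/- replicate 2, 3119 without Cd38+/+ replicate 3, 326 with Benjamini-Hochberg adjustment, 2 with a replicate block and 1 with weights for library quality. Between Cd38-/- and Cd38+/-, it called 0 of 8 members where 0.0346% of 11563 genes were called, and 1 of them, Entpd2, had an unadjusted p under 0.05, against 11.2% of all genes. With those weights, which called 3120 of all 11563 genes in the last comparison, 5 of the 8 members tested there passed. The comparisons share libraries and are given side by side.

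The groups overlapped for all 10 members in every comparison. Among all genes tested, groups stood fully apart for 22.5% in Cd38+/- against Cd38+/+, for 11.8% in Cd38-/- against Cd38+/+ and for 5.73% in Cd38-/- against Cd38+/-. Among 30 two-sided exact permutation tests of single members, unadjusted, 0 gave a p under 0.05. The smallest p was 0.2, 0.19 and 0.0714 in the 3 comparisons in turn. With 3 libraries against 3 no such test can go below 0.1, and with 6 against 3 none below 0.0238.

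**Figure D1:**
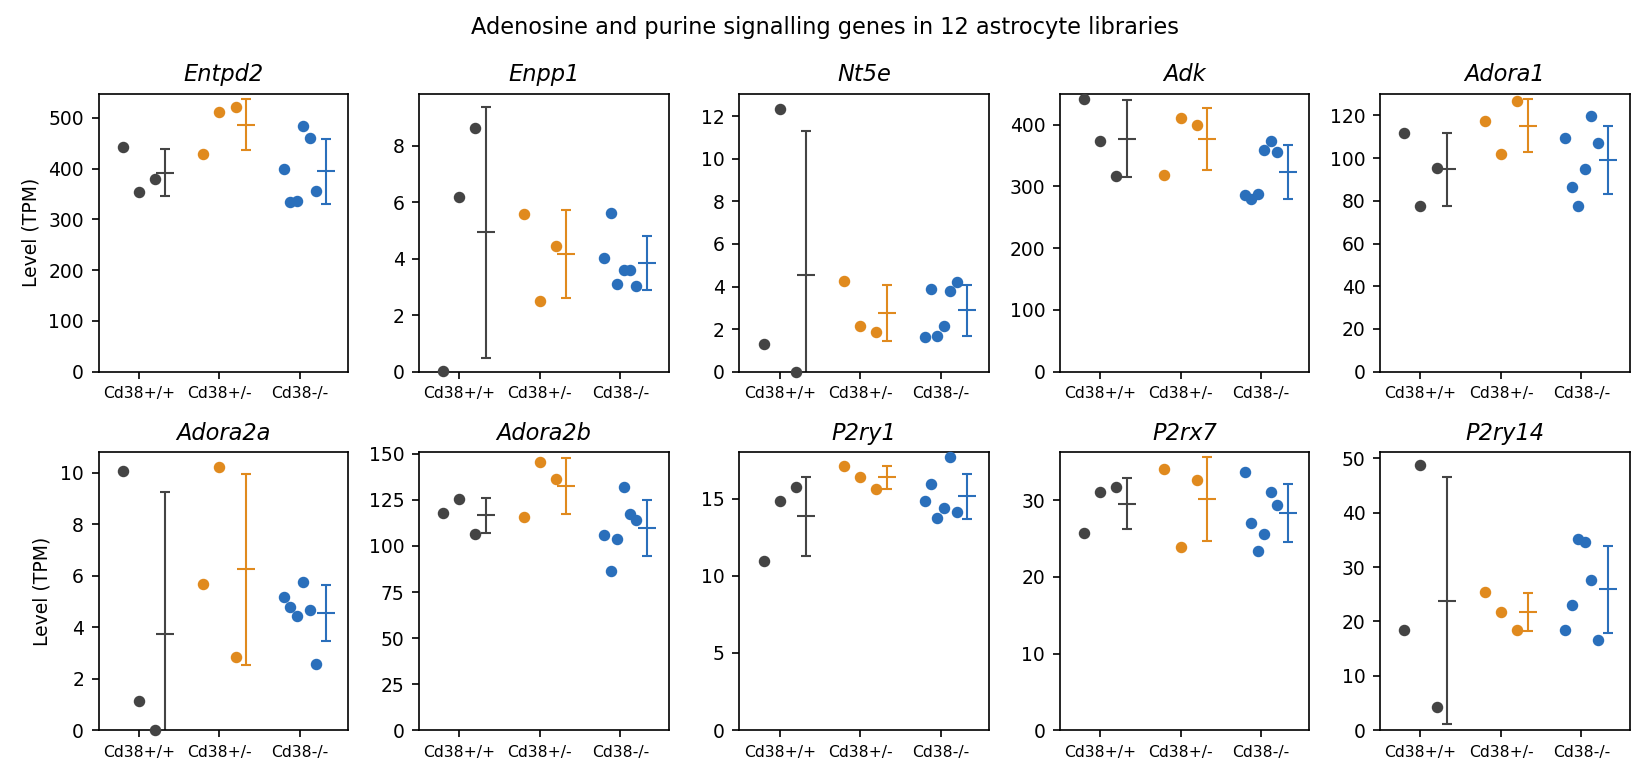
RNA level of each purine signalling gene in TPM (vertical axis, linear, its own scale in each panel), with 1 point per library and the genotype mean ± SD, for 3 Cd38+/+, 3 Cd38+/- and 6 Cd38-/- libraries and error bars ending at 0 where mean minus SD is negative. The genotypes overlap in each of the 10 panels, and Nt5e, Enpp1, Adora2a and P2ry14 spread most in Cd38+/+.

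The members ranged from abundant to sparse. Their order by mean was the same in each genotype except among the sparsest. In Cd38+/+ the means were 4.94 TPM for Enpp1, 4.55 TPM for Nt5e and 3.74 TPM for Adora2a, which placed Adora2a last. By the mean of the genotype means, Entpd2 stood at 424.7 TPM and Adk at 359 TPM, followed by Adora2b at 119.7 TPM and Adora1 at 103 TPM. P2rx7 at 29.3 TPM, P2ry14 at 23.9 TPM and P2ry1 at 15.1 TPM came next, and Adora2a at 4.85 TPM, Enpp1 at 4.32 TPM and Nt5e at 3.40 TPM were the sparsest. Adk exceeded Adora2b, Adora1 exceeded P2rx7 and P2ry1 exceeded Adora2a in 12 of 12 libraries. Neighbours elsewhere in the order changed places: Entpd2 exceeded Adk in 10 of 12 libraries, Adora2b exceeded Adora1 in 9, P2rx7 exceeded P2ry14 in 9, P2ry14 exceeded P2ry1 in 11, Adora2a exceeded Enpp1 in 7 and Enpp1 exceeded Nt5e in 8. Entpd2 ranked between 200 and 419 of all 20614 genes by TPM in the 12 libraries, and Adk between 275 and 513.

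The regions just upstream of the 3 most abundant members are printed because these genes, unlike the sparse ones, ranked high in every library and moved with each other over the 12 libraries pooled. Each line gives the 250 bases before the transcription start from RefSeq on GRCm38.p6, 5′ to 3′ on the plus strand, at chr2:25395624-25395873 for Entpd2, chr14:21052324-21052573 for Adk and chr11:62248734-62248983 for Adora2b. Capitals mark the half-site of nuclear factor I, TTGGC or its reverse complement GCCAA, and the GC box, GGGCGG or CCGCCC.
Entpd2: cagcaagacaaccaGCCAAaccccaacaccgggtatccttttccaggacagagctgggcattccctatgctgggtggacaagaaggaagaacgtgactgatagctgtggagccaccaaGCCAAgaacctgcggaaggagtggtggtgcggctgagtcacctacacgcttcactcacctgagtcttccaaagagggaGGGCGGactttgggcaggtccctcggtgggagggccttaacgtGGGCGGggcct
Adk: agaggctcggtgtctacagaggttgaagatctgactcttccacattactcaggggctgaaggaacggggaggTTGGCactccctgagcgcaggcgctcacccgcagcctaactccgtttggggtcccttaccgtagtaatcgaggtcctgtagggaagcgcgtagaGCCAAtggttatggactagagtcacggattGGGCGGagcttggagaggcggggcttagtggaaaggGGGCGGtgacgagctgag
Adora2b: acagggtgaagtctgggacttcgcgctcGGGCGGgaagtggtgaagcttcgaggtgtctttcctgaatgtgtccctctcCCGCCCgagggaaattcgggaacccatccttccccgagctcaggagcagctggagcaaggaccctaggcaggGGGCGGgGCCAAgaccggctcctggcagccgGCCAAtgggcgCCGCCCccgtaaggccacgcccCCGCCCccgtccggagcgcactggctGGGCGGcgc

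All 3 windows held both motifs. The nuclear factor I half-site matched 2 times in each and occurred in 41.5% of 32851 promoter windows of the same length. The GC box matched 2 times in Entpd2, 2 times in Adk and 6 times in Adora2b, and occurred in 32.7% of all windows. The SOX core ACAAAG, or CTTTGT on the other strand, matched 0 times in the 3 windows and was held by 16.5% of all windows. CpG dinucleotides numbered 9 upstream of Entpd2, 15 upstream of Adk and 22 upstream of Adora2b, against a median of 6. These matches are letters in a window, and no binding was measured.

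Entpd2 encodes NTPDase2, a surface enzyme that removes the terminal phosphate of ATP and leaves mostly ADP. The gene spans chr2:25395874-25401321 on the plus strand of GRCm38 (ENSMUSG00000015085). Its level was 443.35, 353.80 and 378.75 TPM in Cd38+/+, 428.48, 511.60 and 520.62 TPM in Cd38+/-, and 334.50 to 483.18 TPM with a median of 378 TPM in Cd38-/-. A pair of Cd38+/- libraries were the highest of all 12, while the remaining Cd38+/- library lay below 1 Cd38+/+ library and 2 Cd38-/- libraries. For heterozygous against wildtype libraries, Entpd2 gave a log2 fold change of 0.31 (SE 0.15, 95% confidence interval -0.03 to 0.65, limma q = 0.250). Cd38-/- and Cd38+/+ had nearly equal means, 395 ± 64.1 and 392 ± 46.2 TPM (SD, n = 6 and 3), with a fold of 1.00 and an interval of 0.804 to 1.25 that left room for a change of about this size either way.

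The difference between Cd38-/- and Cd38+/- was the nearest to a call among the members. Entpd2 had a log2 fold change of -0.31 there (SE 0.14, interval -0.61 to -0.01, unadjusted p = 0.0423, limma q = 0.309), which did not pass after adjustment. The exact permutation p was 0.0952. Entpd2 shares 1971 bases on the same strand with Npdc1, a neighbouring gene at 182.43 to 306.72 TPM, and reads in that stretch could have been split between them.

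Enpp1 encodes a surface pyrophosphatase that splits ATP and ADP-ribose to give AMP, and lies at chr10:24637914-24712159 on the minus strand. It was 0.01, 6.18 and 8.64 TPM in Cd38+/+, 5.57, 2.5 and 4.45 TPM in Cd38+/-, and 3.05 to 5.64 TPM with a median of 3.61 TPM in Cd38-/-. The Cd38+/+ libraries held both the lowest and the 2 highest values of the series. Its genotype means, 4.94 ± 4.45, 4.17 ± 1.55 and 3.84 ± 0.952 TPM (SD), were all below 5 TPM, so Enpp1 was not tested.

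Nt5e encodes CD73, which converts AMP to adenosine outside the cell, and lies at chr9:88327197-88372092 on the plus strand. It was 1.30, 12.34 and 0 TPM in Cd38+/+, 4.28, 2.13 and 1.87 TPM in Cd38+/-, and 1.61 to 4.21 TPM with a median of 2.97 TPM in Cd38-/-. A single Cd38+/+ library held the highest value and another was listed at 0. Nt5e was not tested under the level filter either. Without that filter the log2 fold change in Cd38+/- against Cd38+/+ was 0.21 with an interval of -2.13 to 2.54, which covers a several-fold change in both directions.

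Adk encodes adenosine kinase, which phosphorylates adenosine to AMP inside the cell and is the main brake on adenosine in astrocytes. It spans chr14:21052574-21448569 on the plus strand (ENSMUSG00000039197). Its level was 442.16, 372.84 and 316.67 TPM in Cd38+/+, 318.81, 410.79 and 399.74 TPM in Cd38+/-, and 279.00 to 374.12 TPM with a median of 322 TPM in Cd38-/-. A group of 3 Cd38-/- libraries, at 279.00, 285.65 and 286.98 TPM, were below all 6 of the others in the remaining genotypes, and the other 3 lay within their range.

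Adk in Cd38-/- had a log2 fold change of -0.22 against Cd38+/+ (SE 0.14, interval -0.53 to 0.10, limma q = 0.214) and also of -0.22 against Cd38+/- (SE 0.13, interval -0.50 to 0.06, limma q = 0.400). The means of Cd38+/- and Cd38+/+ were 376 ± 50.2 and 377 ± 62.9 TPM (SD, n = 3 each), with a log2 fold change of 0.00 and an interval of -0.39 to 0.39. The Entpd2 to Adk ratio ran from 0.949 to 1.2 in Cd38+/+, 1.25 to 1.34 in Cd38+/- and 1.00 to 1.40 in Cd38-/-.

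Among the adenosine receptors, nearly all of the RNA came from Adora2b and Adora1. Adora2b, the low-affinity receptor that raises cyclic AMP, made up 48.0% to 61.5% of the summed adenosine receptor TPM of a library (median 51.1%), and Adora1, which lowers cyclic AMP, made up 37.9% to 49.7% (median 47.4%). Adora2a contributed 0% to 4.21%, and Adora3, the remaining receptor of the family, at most 0.0539%. By genotype, Adora2b had a median share of 52.8% (Cd38+/+), 51.3% (Cd38+/-) and 49.8% (Cd38-/-). These are shares of TPM values, for which no counting interval could be given.

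Adora2b lies at chr11:62248984-62266453 on the plus strand. It was 117.83, 125.58 and 106.62 TPM in Cd38+/+, 115.62, 145.71 and 136.33 TPM in Cd38+/-, and 86.31 to 132.10 TPM with a median of 110 TPM in Cd38-/-. The same pair of Cd38+/- libraries that led for Entpd2 led here, and Cd38-/- replicate 2 was the lowest. The log2 fold change was -0.27 in Cd38-/- against Cd38+/- (SE 0.13, interval -0.56 to 0.01, unadjusted p = 0.0582, limma q = 0.337), with an exact permutation p of 0.0714. Against Cd38+/+ it was -0.09 (interval -0.41 to 0.22, limma q = 0.408) in Cd38-/- and 0.18 (interval -0.21 to 0.56, limma q = 0.409) in Cd38+/-.

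Adora1 lies at chr1:134199223-134235431 on the minus strand. It was 111.79, 77.48 and 95.20 TPM in Cd38+/+, 117.27, 101.93 and 126.66 TPM in Cd38+/-, and 77.43 to 119.55 TPM with a median of 101 TPM in Cd38-/-. Each genotype covered much of the same range, and the means were 94.8 ± 17.2, 115 ± 12.5 and 99.2 ± 15.8 TPM (SD). The log2 fold change was 0.06 (interval -0.30 to 0.43, limma q = 0.482) in Cd38-/- against Cd38+/+ and 0.29 (interval -0.16 to 0.73, limma q = 0.330) in Cd38+/- against Cd38+/+.

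Adora2a, the receptor that is dense on striatal neurons of the indirect pathway, was sparse here. It lies at chr10:75316877-75334784 on the plus strand and was 10.08, 1.14 and 0 TPM in Cd38+/+, 5.69, 10.20 and 2.84 TPM in Cd38+/-, and 2.57 to 5.76 TPM with a median of 4.72 TPM in Cd38-/-. The Cd38+/+ libraries spanned almost the whole range of the series by themselves. Of the genes that mark the same neurons, Drd2 and Gpr6 were at 0 to 0.5 TPM and 0 to 0.26 TPM, while Penk was at 18.98 to 223.24 TPM in Cd38+/+, 37.91 to 49.71 TPM in Cd38+/- and 3.3 to 61.24 TPM in Cd38-/-. The sum of 8 striatal projection neuron markers ran from 171 to 432 TPM in Cd38+/+, 289 to 360 TPM in Cd38+/- and 272 to 302 TPM in Cd38-/-. Of these, Ppp1r1b alone was 144.84 to 203.94, 231.45 to 301.75 and 216.78 to 251.72 TPM. Cd38+/+ replicate 3, with the highest sum, listed Adora2a at 0, and Cd38+/+ replicate 2, with the lowest, at 1.14 TPM. The part of such neurons in the Adora2a values was not tested. The log2 fold change in Cd38+/- against Cd38+/+ was 1.2 with an interval of -0.95 to 3.35 (limma q = 0.365), so the sparse values set no useful limit on a change in Adora2a.

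P2ry1, P2rx7 and P2ry14 represent the nucleotide receptors. P2ry1 encodes an ADP receptor coupled to calcium release and lies at chr3:61002795-61008982. It was 10.94, 14.87 and 15.77 TPM in Cd38+/+, 17.09, 16.39 and 15.63 TPM in Cd38+/-, and 13.77 to 17.68 TPM with a median of 14.6 TPM in Cd38-/-. Apart from the lowest Cd38+/+ library, the values lay in a narrow band, and the log2 fold change was 0.13 (interval -0.36 to 0.62, limma q = 0.429) in Cd38-/- against Cd38+/+.

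P2rx7 encodes an ATP-gated channel that opens at high ATP and is also a microglial gene, and lies at chr5:122643911-122691432, 78.7 Mb from Cd38 on the same chromosome. It was 25.73, 31.10 and 31.76 TPM in Cd38+/+, 34.05, 23.84 and 32.57 TPM in Cd38+/-, and 23.40 to 33.71 TPM with a median of 28.2 TPM in Cd38-/-. The 3 ranges nearly coincided, with means of 29.5 ± 3.31, 30.2 ± 5.52 and 28.4 ± 3.78 TPM (SD). The log2 fold change was -0.06 in Cd38-/- against Cd38+/+, with an interval of -0.46 to 0.34 (limma q = 0.495). The 10 microglial markers summed to 107 to 125 TPM in Cd38+/+, 137 to 168 TPM in Cd38+/- and 119 to 183 TPM in Cd38-/-.

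P2ry14 encodes the receptor for UDP-glucose and lies at chr3:59113855-59153618 on the minus strand, wholly inside Med12l on the opposite strand. It was 18.38, 48.81 and 4.33 TPM in Cd38+/+, 25.34, 21.79 and 18.36 TPM in Cd38+/-, and 16.54 to 35.15 TPM with a median of 25.3 TPM in Cd38-/-. Both the highest and the lowest value of the 12 were from Cd38+/+. Med12l was at 0.29, 13.57 and 3.57 TPM in those 3 libraries, and it too was highest in replicate 2. Its lowest value was in replicate 1, while that of P2ry14 was in replicate 3. Among the Cd38-/- libraries, replicate 3 had the highest P2ry14, 35.15 TPM, and the lowest Med12l, 2.99 TPM. Whether the counting used strand was not given in the sources used here, and the part of Med12l reads in the P2ry14 value was not tested.

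P2ry14 gave a log2 value of 0.59 for the fold change in Cd38-/- against Cd38+/+ (interval -0.58 to 1.75, limma q = 0.301), and it rested on single Cd38+/+ libraries. Without Cd38+/+ replicate 2 it was 1.35 with limma q = 0.0446, which passed the call, and without Cd38+/+ replicate 3 it was -0.26. Against Cd38+/- the log2 fold change in Cd38-/- was 0.19 (interval -0.32 to 0.71, limma q = 0.582).

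**Figure D2:**
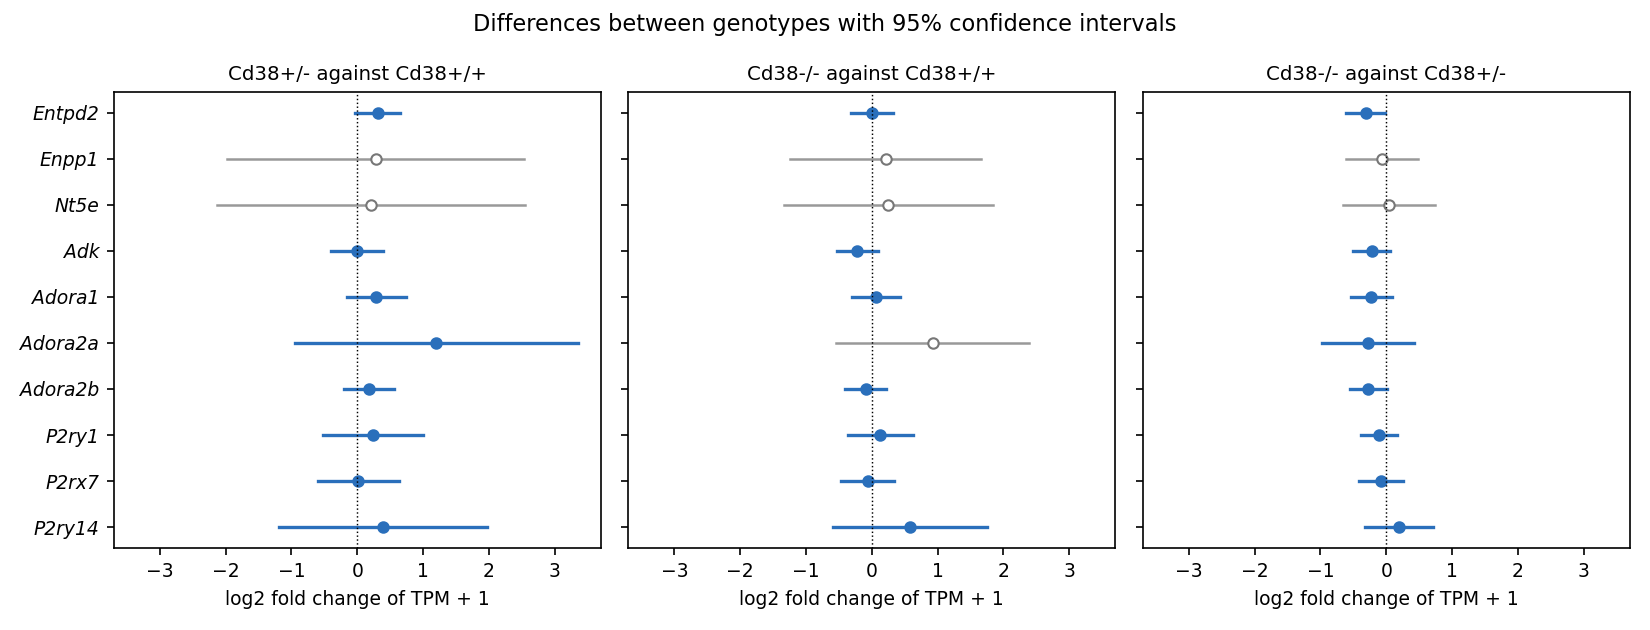
Log2 fold change on log2(TPM + 1) of each tested purine signalling gene in the 3 genotype comparisons, with the 95% confidence interval from limma, for 8, 7 and 8 genes. Open grey points mark genes not tested in a comparison, with intervals from the fit without the level filter. Every interval includes 0 except that of Entpd2 in Cd38-/- against Cd38+/-, which ends at -0.01. Among tested genes, the intervals of P2ry14 and Adora2a are the widest. Those of the untested Nt5e (-2.13 to 2.54) and Enpp1 (-1.98 to 2.54) in Cd38+/- against Cd38+/+ are wider still.

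The spread between libraries differed between genotypes. The SD of log2(TPM + 1) was largest in Cd38+/+ for 7 of 10 members, and for 77.7% of 11722 genes in the table. For Nt5e this SD was 1.91, 0.48 and 0.46 in Cd38+/+, Cd38+/- and Cd38-/-, while for Entpd2 it was 0.17, 0.16 and 0.23. The median SE of the log2 fold change over the tested members was 0.23, 0.17 and 0.14 in the 3 comparisons, against 0.35, 0.26 and 0.16 over all genes.

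The direction of the differences is described here without a test. In Cd38+/- against Cd38+/+, 8 of 8 tested members had a log2 fold change above 0, with a median of 0.26, beside 7577 of 11763 genes and a median of 0.18. Knockout libraries against Cd38+/+ had 4 of 7 above 0, with a median of 0.00 beside 0.15 over all genes. Against Cd38+/-, knockout libraries had 1 of 8 above 0, with a median of -0.22 beside -0.02. Directions of these small differences depended on the scaling: the median of all genes in Cd38+/- against Cd38+/+ moved from 0.18 to 0.06 under median-ratio scaling, under which Adk and P2rx7 turned negative, and 6 of the 8 were negative with libraries scaled to the astrocyte marker sum described below.

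Entpd2, Adk and Adora2b, the 3 most abundant members, moved together and with the astrocyte markers over the 12 libraries pooled across genotypes. These relations were chosen after the values were seen, 10 were computed on log2(TPM + 1), and libraries share the constraint that TPM sums to a constant. Over 12 libraries, Adk and Adora2b gave Pearson r = 0.793 (permutation p = 0.0015, adjusted 0.00533) and Spearman rho = 0.874 (permutation p = 0.0004, adjusted 0.002), with r = 0.695 without the 2 libraries farthest from the median. Entpd2 and Adora2b gave r = 0.784 (permutation p = 0.0016, adjusted 0.00533) and rho = 0.811 (permutation p = 0.00216, adjusted 0.0072), with r = 0.696 on the same reduction. Entpd2 and Adk gave r = 0.67 (permutation p = 0.0207, adjusted 0.0296) and rho = 0.72 (permutation p = 0.011, adjusted 0.0183), with r = 0.546 on that reduction. Adora1, the next in abundance, passed with Entpd2, at r = 0.685 (permutation p = 0.015, adjusted 0.0296) and r = 0.557 on that reduction. Its rho with Entpd2 was 0.671 (permutation p = 0.0203, adjusted 0.0254). Adora1 did not pass with Adk, at r = 0.411 (permutation p = 0.183, adjusted 0.203) and rho = 0.448 (permutation p = 0.148, adjusted 0.164), or with Adora2b, at r = 0.337 (permutation p = 0.289, adjusted 0.289) and rho = 0.336 (permutation p = 0.284, adjusted 0.284). Within the 6 Cd38-/- libraries, no pair of Entpd2, Adk and Adora2b passed after adjustment. There Adk and Adora2b gave r = 0.816 (exact permutation p = 0.0222, adjusted 0.0555). Entpd2 gave r = 0.803 with Adora2b (exact permutation p = 0.0361, adjusted 0.0722) and r = 0.691 with Adk (exact permutation p = 0.125, adjusted 0.206).

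The summed astrocyte markers gave r = 0.836 with Entpd2 (permutation p = 0.00044, adjusted 0.0044) and rho = 0.874 (permutation p = 0.00036, adjusted 0.002), and r = 0.95 without 2 libraries. With Adora2b they gave r = 0.766 (permutation p = 0.00474, adjusted 0.0119) and rho = 0.776 (permutation p = 0.00432, adjusted 0.0108), and with Adk r = 0.664 (permutation p = 0.0195, adjusted 0.0296) and rho = 0.72 (permutation p = 0.0108, adjusted 0.0183). Without 2 libraries these were r = 0.801 and r = 0.673. Adora1 gave r = 0.614 with the sum (permutation p = 0.0386, adjusted 0.0483) and r = 0.8 without 2 libraries. Its rho with the sum was 0.671 (permutation p = 0.0203, adjusted 0.0254). Within the 6 Cd38-/- libraries, the only genotype with enough samples, r with the marker sum was 0.927 for Entpd2 (exact permutation p = 0.0194), 0.906 for Adora2b (exact p = 0.0111) and 0.877 for Adk (exact p = 0.00556), each 0.0555 after adjustment over the 10 relations. For Adora1 it was 0.69 there (exact permutation p = 0.144, adjusted 0.206).

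The marker sum itself had its highest mean in Cd38+/-, 16029 TPM, against 13404 TPM in Cd38-/- and 12508 TPM in Cd38+/+. Its log2 difference was -0.26 in Cd38-/- against Cd38+/- (exact permutation p = 0.0476, unadjusted), 0.37 in Cd38+/- against Cd38+/+ (exact permutation p = 0.1) and 0.11 in Cd38-/- against Cd38+/+ (exact permutation p = 0.452). With every library scaled to an equal marker sum, an alternative added after the data were seen, the log2 fold change in Cd38-/- against Cd38+/- went from -0.31 to -0.05 for Entpd2, from -0.27 to -0.01 for Adora2b and from -0.22 to 0.04 for Adk. This scaling shifts all genes of a library alike, and the median of all genes went from -0.02 to 0.23. The moves of these members therefore follow from the scaling and are not particular to them. Of the 10 markers, 2 were called higher and 0 lower in Cd38-/- against Cd38+/+, and 0 were called in the other comparisons. The sum is therefore not a neutral measure of astrocyte content. Lower astrocyte content, lower astrocyte RNA per cell and changes in the marker genes themselves cannot be told apart here.

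**Figure D3:**
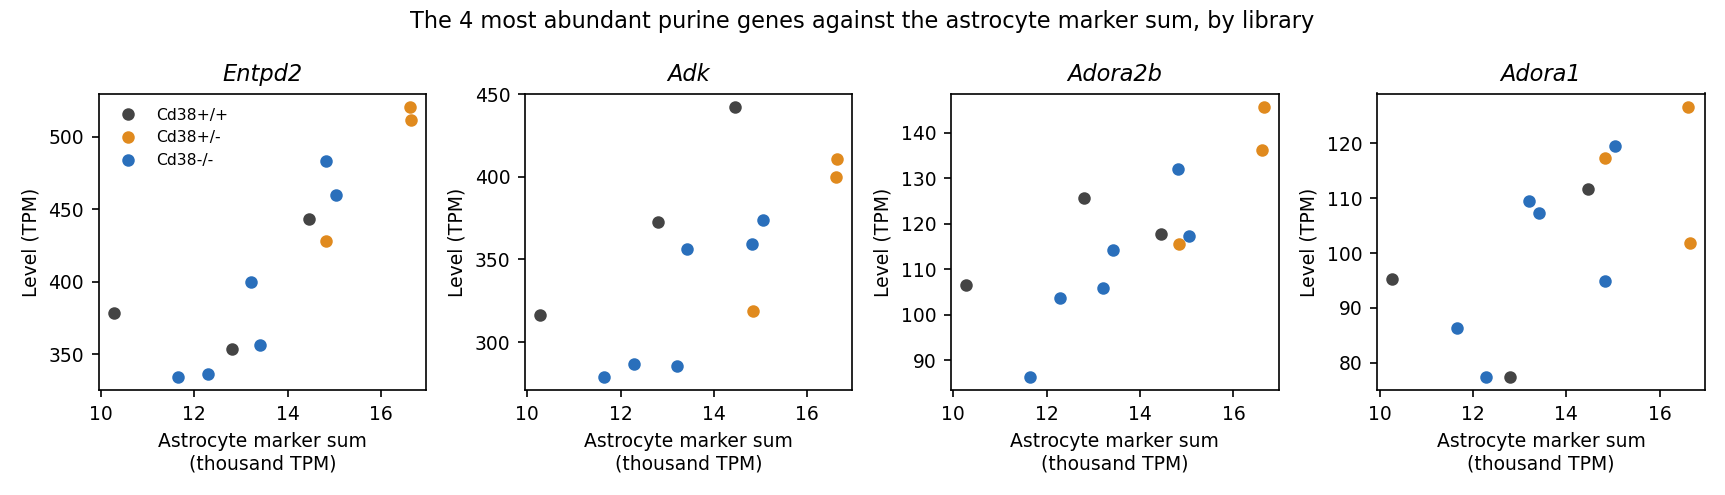
TPM of Entpd2, Adk, Adora2b and Adora1 (vertical axes) against the summed TPM of 10 astrocyte marker genes (horizontal axes), with 1 point per library in the colour of its genotype. Libraries with a higher marker sum have more Entpd2, with Pearson r = 0.836 over 12 libraries on the log2 scale, and the 3 Cd38+/- libraries sit towards the right.

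Genes most like the top 2 members across the 12 libraries were found by Pearson r of log2(TPM + 1) over 11845 genes. For Entpd2 they were Paqr7 (r = 0.94), Agpat5 (r = 0.93) and Cyp2d22 (r = 0.927), and for Adk they were Cd81 (r = 0.944), Tlcd1 (r = 0.932) and Dph1 (r = 0.927). These are the highest values among many genes and are given as a description.

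Of 63 further genes in 4 lists of purine handling, 38 were tested in Cd38-/- against Cd38+/+, with 5 called higher and 1, Cd38 itself, called lower, beside 752 higher and 218 lower among all 11722 genes. In the other comparisons limma called 0 of 38 in Cd38+/- against Cd38+/+, with 9 at an unadjusted p under 0.05, and 1 of 36, again Cd38, in Cd38-/- against Cd38+/-. Each of the 5 calls was lost when some single library was left out, and each was also lost with weights, with the replicate block and with scaling to the astrocyte marker sum. Counting every alternative run, Enpp5 was lost in 11 of 22, Slc29a4 in 7 of 21, Nt5c1a in 13 of 21, Ahcy in 14 of 21 and P2ry12 in 16 of 21. The 4 sparse ones, all but Enpp5, had at least 1 library at or near 0 in Cd38+/+, the genotype with the fewest genes above 0, and the part of this in the calls was not tested.

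In a list of 15 enzymes kept with the nucleotidases, which included Cd38 and was not limited to surface enzymes, 9 were tested in Cd38-/- against Cd38+/+. Enpp5, a relative of Enpp1, was 108.96, 125.93 and 86.08 TPM in Cd38+/+, 168.89, 134.84 and 167.78 TPM in Cd38+/-, and 126.23 to 176.58 TPM in Cd38-/-. It rose by a log2 fold change of 0.56 (SE 0.15, limma q = 0.0330) without overlap of the groups, and the call was lost in 5 of 9 fits that left out a library.

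Adenosine uptake and metabolism gave 3 calls among 19 of 25 genes tested. Slc29a4 encodes a membrane transporter that carries monoamines and, in acid conditions, adenosine. It was 0.04, 0 and 1.80 TPM in Cd38+/+ and 3.26 to 21.38 TPM in Cd38-/-, with a log2 fold change of 2.69 (SE 0.56, limma q = 0.0192), lost in 3 of 9 such fits. Among choroid plexus and ependyma markers, 4 of 8 were called higher in Cd38-/- against Cd38+/+, and both Slc29a4 (62.52 TPM) and the marker sum (9064 TPM) were highest in Cd38+/- replicate 1. Other libraries did not go together in this way. Cd38+/+ replicate 3 had a sum of 2907 TPM with Slc29a4 at 1.80 TPM. Cd38-/- replicate 4 had a lower sum, 2097 TPM, with Slc29a4 at 9.14 TPM. The part of these markers in the Slc29a4 difference was not tested.

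Nt5c1a encodes a cytosolic nucleotidase that makes adenosine from AMP. It was 2.59, 0 and 1.65 TPM in Cd38+/+ and 3.59 to 8.53 TPM in Cd38-/-, with a log2 fold change of 1.63 (SE 0.48, limma q = 0.0449), lost in 7 of 9 such fits. Ahcy encodes the enzyme that releases adenosine from S-adenosylhomocysteine. It was 0.48, 0.09 and 22.85 TPM in Cd38+/+ against 18.03 to 21.03 TPM in Cd38-/-, so that 1 Cd38+/+ library exceeded every Cd38-/- library although the gene was called at a log2 fold change of 2.63 (SE 0.74, limma q = 0.0401), lost in 8 of 9 fits. Ahcy has close copies elsewhere in the genome, between which reads could have been split.

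Of 14 other purine receptors, 5 were tested and 1 was called. P2ry12, an ADP receptor of microglia, was 0, 0 and 6.23 TPM in Cd38+/+ and 4.06 to 8.71 TPM in Cd38-/-, with a log2 fold change of 1.98 (SE 0.61, limma q = 0.0479), lost in 8 of 9 fits. Among the 10 microglial markers, 6 were tested in that comparison and P2ry12 alone was called. Cx3cr1 and Tmem119, which mark microglia, were at 0 in all 3 Cd38+/+ libraries and at 0.27 to 4.77 TPM and 0.69 to 9.28 TPM in Cd38-/-, beside the marker sums given with P2rx7, and their part in the P2ry12 difference was not tested. Of 9 genes of ATP release, 5 were tested and 0 were called, and the most abundant were the connexin genes Gja1, at 1820.06 to 3396.47 TPM, and Gjb6, at 793.44 to 1642.04 TPM.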

How the data were processed

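RNA from ACSA-2 selected astrocytes was depleted of ribosomal RNA, amplified with SMART-Seq v4 and sequenced as paired ends. Per the submitters' processing notes, the authors used Trim Galore 0.6.4, STAR 2.7.1a and RSEM 1.2.28 with mm10, and the gene annotation was not given in the sources used here. The deposited values are TPM per gene as the authors computed them, which RSEM estimates by sharing ambiguous reads between genes and which carry no depth, so that precision was judged only from the spread between libraries. TPM values are relative, and a change in a few abundant genes moves all others.

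Values were taken as log2(TPM + 1), which understates the fold change of low genes, and genes with a mean above 5 TPM in at least 1 compared genotype were fitted with limma 3.58.1 (R 4.3.3, eBayes with trend) on the libraries of the compared genotypes only. Calls needed Storey q < 0.05 together with a change of 1.2-fold or more. Q values, like every adjusted value printed from limma, were computed over all genes tested. Single members were tested by two-sided exact permutation of the difference in mean log2(TPM + 1), and correlations by 100000 permutations, with the smaller tail doubled (scipy 1.17.1). The fit was also run on simulated data with independent noise and 1 spread per gene shared by both groups. In the real libraries the spread was largest in Cd38+/+ for 77.7% of genes, so that run does not bear on how stable the calls are here. Replicate numbers came from the labels. Positions were from GENCODE vM21 on GRCm38, which matched 20503 of 20614 genes, and promoters from RefSeq.

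The members, gene lists and marker lists were chosen with earlier results of these data known. Genes named were all members, Cd38, genes of the other lists called in any comparison (or the 2 most abundant of a list without calls), and the 3 genes most correlated with each of the 2 most abundant members. Npdc1, Med12l, Adora3, Drd2, Gpr6, Penk, Ppp1r1b, Cx3cr1 and Tmem119 were named after their values were seen. Alternatives covered pseudocount, filter, scaling, quantile normalisation, length and GC trends, adjustment, weights, a replicate block, all libraries in a shared fit, and leaving out each library.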

Additional observations from a re-analysis of the deposited data

Results flagged for a closer look

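The Slc29a4 level of Cd38-/- replicate 2, 21.38 TPM, stood far above the other 5 Cd38-/- libraries, with a gap to the nearest that was 0.632 of the whole range of the group, past the critical value of the Dixon test at 95%. Of 18 groups of 6 libraries examined in this way this was the only 1, and chance alone gives about 1 in 20.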

How the results depend on the processing

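The 3 counts of members called stayed at 0 except in 2 settings. The count in Cd38-/- against Cd38+/+ ranged from 0 to 1 over the fits that left out a library, the 1 being P2ry14 without Cd38+/+ replicate 2. Library quality weights in Cd38-/- against Cd38+/- gave 5 calls, Entpd2 (-0.42, limma q = 0.00134), Adora2b (-0.31, q = 0.00404), Adora1 (-0.32, q = 0.00507), Adk (-0.27, q = 0.00713) and P2ry14 (0.32, q = 0.0462), a setting that called 3120 of all 11563 genes where 4 were called without it. Of 479 recomputed member values, 429 kept direction and call, 44 changed sign and 6 newly passed. Of 150 recomputed values of other called genes, 63 lost the call and 87 kept direction and call. With the replicate block 0 members were called in any comparison, and the replicate numbers did not pair the samples (r of same-numbered deviations between -0.32 and 0.50). The block turned the sign in Cd38-/- against Cd38+/+ of Entpd2 (-0.13) and Adora1 (-0.057). Log2 fold changes that turned in Cd38+/- against Cd38+/+ were Adk (-0.13) and P2rx7 (-0.11) under median-ratio scaling, Adora2a (-0.075), P2ry1 (-0.0080) and P2rx7 (-0.12) under quantile normalisation, and Adk (-0.16) and P2rx7 (-0.16) with length and GC trends removed. In Cd38-/- against Cd38+/+ they were Entpd2 (-0.11) and Adora1 (-0.052) under median-ratio scaling, Entpd2 (-0.035) with weights, P2ry1 (-0.10) under quantile normalisation and Adora1 (-0.0013) with length and GC trends removed. Adora2a turned to 0.37 with weights in Cd38-/- against Cd38+/-. Scaling to the astrocyte marker sum, added after the data were seen, moved the median of all genes to -0.17, 0.05 and 0.23 in the 3 comparisons. It gave Entpd2 -0.056, Adk -0.37, Adora1 -0.077, Adora2b -0.19, P2ry1 -0.11 and P2rx7 -0.34 in Cd38+/- against Cd38+/+, Entpd2 -0.11 and Adora1 -0.043 in Cd38-/- against Cd38+/+, and Adk 0.042, Adora1 0.034, P2ry1 0.14 and P2rx7 0.17 in Cd38-/- against Cd38+/-. Leaving out single libraries moved Adk from -0.12 to 0.12, P2rx7 from -0.074 to 0.17 and P2ry14 from -0.46 to 1.16 in Cd38+/- against Cd38+/+. In Cd38-/- against Cd38+/+ the ranges were -0.068 to 0.094 for Entpd2, -0.072 to 0.19 for Adora1, -0.021 to 0.22 for P2ry1 and -0.26 to 1.35 for P2ry14, and in Cd38-/- against Cd38+/- P2rx7 ran from -0.23 to 0.014. The Cd38 call was lost in Cd38-/- against Cd38+/- without Cd38+/- replicate 3 (q = 0.0595) and in Cd38-/- against Cd38+/+ with weights (q = 0.109). Apart from settings built on fewer samples, the cause was not tested. The TPM unit hides depth, so a listed 0 cannot be given an upper limit.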
